A study of Mus musculus and Homo sapiens with 352 samples.

Results

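The loops described here are the CTCF-anchored interactions that were well supported in wild-type and in CTCF-mutant cells of CH12, a B lymphoma line from the mouse. They were chosen by their tags: an interaction belonged to the set when both interaction lists held it with identical anchors and each gave it 10 or more paired-end tags. This held for 929 of 17954 distinct interactions, or 17.2% of the 5400 interactions found in both lists. The wild-type list held 11534 interactions and the mutant list 11820. The 929 loops made up 8.05% of the wild-type list and 7.86% of the mutant list, and they carried 24.7% and 25.9% of the listed tags.

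CTCF recognises a directional DNA motif through its row of zinc fingers. It halts the ring-shaped cohesin complex as cohesin extrudes chromatin, so that pairs of bound CTCF sites become the ends, or anchors, of chromatin loops. ChIA-PET enriches chromatin with an antibody, ligates DNA ends that lie close together and sequences the joined pairs. Each pair is 1 tag for the interaction between its ends.

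The mutant cells carried the genotype that the labels call CTCFmZF9to11, a CTCF altered at zinc fingers 9 to 11, and the sources used here do not say whether they were 1 clone. Each genotype had 1 ChIA-PET library. Differences between the libraries therefore have no replicate check, and no p-value is given. Intervals are 95% intervals that cover counting error only and treat loops, peaks or tags as independent, which loops with common anchors are not. Sites bound by CTCF were taken from a list of 39438 peaks in wild-type CH12 cells, called CH12 peaks below, and from a B cell list (resting with activated cells) of 59978 peaks. Peak strength is given as the percentile of the authors' value within its own list. At the top of the CH12 list 176 peaks had the same score, at percentile 99.7, so anchors at that value cannot be ranked. Coordinates are in mm9.

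Many interactions with 10 or more tags in 1 library were under that limit in the other, or missing from it. The limit applies to unscaled tags, and the mutant list holds more of them (82222 against 74198). Counts near 10 can fall on either side of it through counting error, and how many did was not tested. The wild-type library gave 10 or more tags to 1730 interactions. Of these, 53.7% (Wilson interval 51.3 to 56.0) reached 10 in the mutant library too, 477 were listed there with fewer, and 324 were missing. Of 2070 such mutant interactions, 44.9% (42.7 to 47.0) were strong in both, 842 had fewer tags in the wild-type library, and 299 were missing. Both shares count the same 929 loops, so they differ only through the number of interactions at the limit in each list. The missing ones were 18.7% of the strong wild-type and 14.4% of the strong mutant interactions. Over the whole lists, 5400 of 11534 wild-type and of 11820 mutant interactions were found in both. Strong interactions were thus missing from the other list less often than interactions in general. Since interactions under 3 tags are not listed, choosing by tags favours this order by construction. The strong shared loops had a median of 16 wild-type tags (range 10 to 259) and 18 mutant tags (range 10 to 256). Loops just inside the limit, with a lower count of 10 or 11, numbered 266 and had a median span of 122 kb, a median log2 tag ratio of -0.02 and a median of 3 CH12 peaks between their anchors. Interactions just outside it, with a lower count of 8 or 9, numbered 473 and had 119 kb, 0.02 and 3 peaks.

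The strongest loop lay on chromosome 14 (chr14:103410668-103412482 with chr14:103450300-103451403) and had 259 wild-type and 256 mutant tags. It was short, at 39.3 kb, and neither peak list had a peak between its anchors, which sat at percentiles 98.1 and 99.4 of the CH12 list. The next by tags was a loop on chromosome 1 (chr1:183818297-183820330 with chr1:184044964-184046546), with 93 and 178 tags over 226 kb. It had no CH12 peak between its anchors but 4 B cell peaks. The third, on chromosome 11 (chr11:4118701-4121159 with chr11:4157632-4159579), had 75 and 138 tags over 38.7 kb. A chromosome 2 loop (chr2:32259653-32261679 with chr2:32342190-32344911) had 103 and 108 tags, and a chromosome 3 loop (chr3:145720822-145721854 with chr3:145840288-145841722) had 95 and 106. Of these 5 loops, 3 thus had nearly equal tags and 2 had more in the mutant library. Of their 10 anchors, 8 lay above percentile 98 of the CH12 list, and the others were at 88.7 and 79.6.

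The strong shared loops were shorter than the weaker shared interactions. The median span, between anchor centres, was 116 kb (order-statistic interval 108 to 125), with quartiles of 62.4 and 206 kb and a range of 7.99 to 1139 kb. The 4471 interactions shared with fewer tags had a median of 139 kb (134 to 144). Spans of 50 to 100 kb were found in 27.3% of the strong shared loops and 20.96% of the weaker ones. At the long end 57 strong shared loops, 6.14%, spanned 400 kb or more, against 12.0% of the weaker ones, a difference of -5.85 percentage points (Newcombe interval -7.54 to -3.89). Interactions with 10 or more tags that were unique to the wild-type list had a median of 104 kb (90.9 to 117), and those unique to the mutant list 135 kb (122 to 152). Within the strong shared loops, tags did not follow span: across the 929 loops the correlation of log2 span with log2 tags was -0.05 by Pearson and -0.05 by Spearman.

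**Figure D1:**
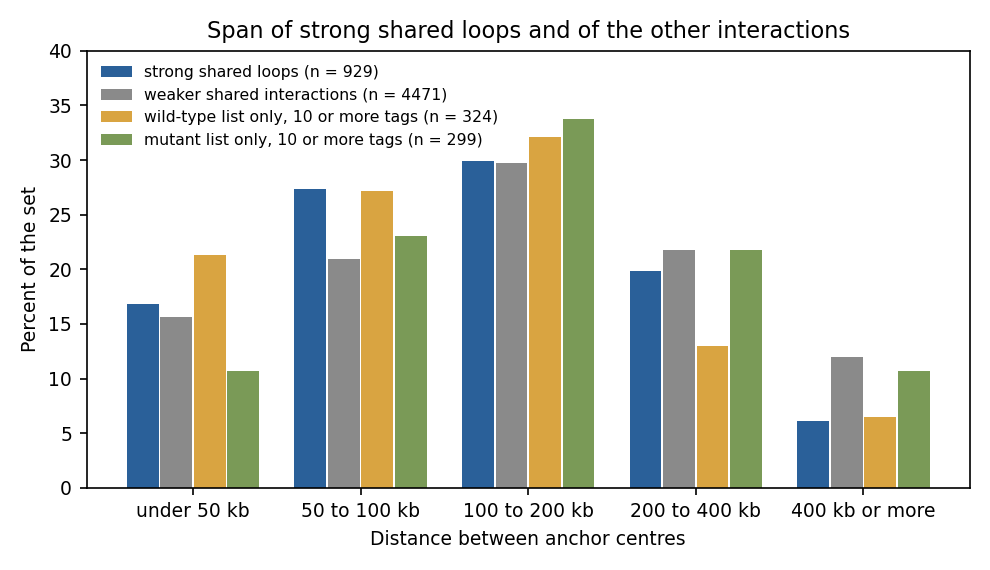
Percent of interactions in each span class (distance between anchor centres, kb) for the strong shared loops, the weaker shared interactions, and interactions with 10 or more tags in 1 list only. The strong shared loops peak at 100 to 200 kb with 29.9% and fall to 6.14% at 400 kb or more, where the weaker shared interactions have 12.0%.

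The longest loop joined chr13:110019060-110020045 with chr13:111158435-111159606 over 1139 kb and had 53 wild-type and 76 mutant tags. Its left anchor carried a weak CH12 peak, at percentile 9.06, and only 3 CH12 peaks lay between its anchors, while the B cell list had 30 there. The next in length were on chromosome 14 (1132 kb, 17 and 24 tags), chromosome 4 (1074 kb, 11 and 12 tags), chromosome 10 (1042 kb, 12 and 15 tags) and chromosome 8 (774 kb, 12 and 19 tags). All 5 had more tags in the mutant list as counted, and none was past 2-fold. The shortest loop, on chromosome 5 (chr5:120544257-120545410 with chr5:120552132-120553514), spanned 7.99 kb with 17 and 14 tags. The other 4 of the 5 shortest spanned 9.30 to 14.7 kb. They had 13 to 22 wild-type and 10 to 12 mutant tags, so all 5 shortest loops had fewer tags in the mutant list. These 10 loops are the ends of the span range. Across all 929 loops log2 span and the log2 tag ratio had a Pearson r of 0.08.

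Tag ratios were scaled by the listed tags of each library (74198 wild type, 82222 mutant). Since tags chose the loops, the ratios are a description. The median log2 ratio of mutant over wild type was 0.004 (-0.02 to 0.06), with quartiles of -0.30 and 0.42. At least 2-fold higher in the mutant library, and called raised below, were 49 loops, 5.27%. At least 2-fold lower, and called lowered, were 47, 5.06%. Over all shared interactions the corresponding shares were 12.6% and 10.9%. Either direction held 96 loops, 10.3% (8.54 to 12.5), where all shared interactions gave 23.5%. The limit of 10 tags in both lists keeps out large ratios among loops with few tags, so these shares do not compare how far the sets differ between libraries.

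The spread of ratios was wider than counting error for loops with many tags. Among the 129 loops with 60 or more tags in all, the standard deviation of the log2 ratio was 0.74, against 0.33 expected from counting alone. Among the 242 loops with 40 to 59 tags it was 0.72 against 0.44. In the 319 loops with 20 to 29 tags it was 0.39 against 0.59, a class that the limit itself narrows. Without replicate libraries, variation between cultures or preparations cannot be told apart from genotype.

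**Figure D2:**
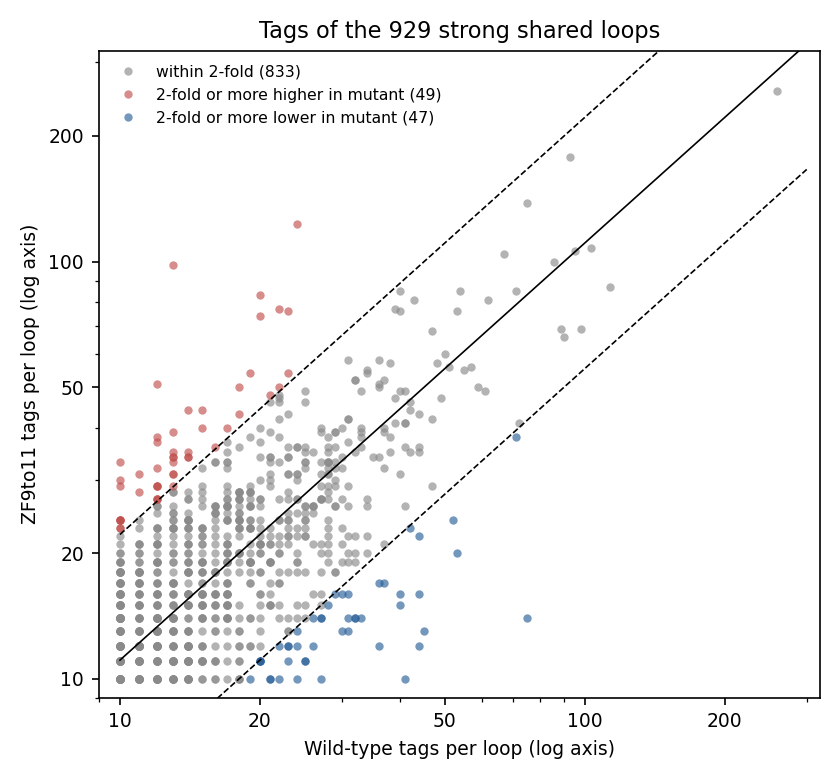
Wild-type tags (x axis) against ZF9to11 mutant tags (y axis), both on log axes, with 1 point per strong shared loop. The solid line marks equal tags after scaling by listed tags and the dashed lines mark 2-fold; 49 loops lie at or above the upper dashed line, 47 at or below the lower one and 833 between.

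The loop with the highest ratio joined chr3:144116074-144117337 with chr3:144382835-144384208, with 13 wild-type and 98 mutant tags (log2 2.77, exact interval 1.93 to 3.73). The other interactions of its anchors had 77 and 118 tags, a smaller step. A chromosome 14 loop (chr14:56440949-56442335 with chr14:56537171-56538234) had 24 and 123 tags (log2 2.21, 1.57 to 2.91), and the others at its anchors had 78 and 157. The remaining 3 of the highest 5 lay on chromosome 17 (12 and 51 tags, and 20 and 74 tags) and chromosome 9 (20 and 83 tags). The lowest ratio was on chromosome 4 (chr4:154468278-154470093 with chr4:154621844-154624101), with 75 wild-type and 14 mutant tags (log2 -2.57, -3.51 to -1.73). The other interactions of its anchors had nearly equal tags, at 21 and 19. On chromosome 19 (chr19:6491145-6492786 with chr19:6551906-6552993) the loop had 41 and 10 tags while the others at its anchors had 15 and 34. Loops on chromosome 12 (44 and 12 tags) and chromosome 9 (45 and 13 tags) followed, and there the other tags of the anchors were lower in the mutant list too, at 48 and 21 and at 9 and 4. The fifth, on chromosome 13 (chr13:110852656-110853621 with chr13:111158435-111159606), had 36 and 12 tags.

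This chromosome 13 loop shared its right anchor with the longest loop, inside which it was nested. From wild type to mutant the inner loop, of 306 kb, went from 36 to 12 tags and the outer one, of 1139 kb, from 53 to 76. Their log2 ratios were -1.73 and 0.37. The inner loop was named for its low ratio, so the contrast is a description. The left anchor of the inner loop was the strongest CH12 peak within the outer loop, at percentile 49.5. The longer loop had more tags than the shorter one in both libraries.

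The other interactions at the anchors of loops past 2-fold were set beside them. For the 49 raised loops, the other interactions at the same anchors had a higher scaled sum of tags in the mutant library in 32 (65.3%, 51.3 to 77.1). For the 833 loops within 2-fold it was 510 of 822 with other interactions (62.0%, 58.7 to 65.3), nearly the same share. For the 47 lowered loops it was 22 (46.8%, 33.3 to 60.8). A log2 ratio of the others needs tags in both lists, which left 47 raised loops, 760 within 2-fold and 42 lowered. Its median was 0.21 (-0.03 to 0.47) beside raised loops, 0.27 (0.21 to 0.34) beside loops within 2-fold and -0.09 (-0.29 to 0.30) beside lowered ones. The median beside raised loops was thus not above that beside loops within 2-fold. Interactions under 3 tags are not listed and are missing from these sums.

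Raised and lowered loops were spread unequally over the range of CH12 peak strength at the anchors, which is given without a test. The weaker of both anchors ranks each loop here, and 925 loops with a CH12 peak at both ends were divided into 4 classes of nearly equal size. In the lowest class, up to percentile 63.1 of the CH12 list, 3 loops were raised 2-fold and 21 lowered. In the second class 12 were raised and 2 lowered, in the third 7 and 6, and in the highest, from percentile 88.7, 27 and 17. The highest class held the most loops past 2-fold, 44 of 232. The median log2 ratio was -0.05 (-0.15 to 0.04) in the lowest class and 0.11 (0.004 to 0.23) in the highest. Over all loops the score and the log2 ratio had a Spearman rho of only 0.13. Among weaker shared interactions within the same score limits, the lowest class had 201 raised and 209 lowered of 1803, and the highest had 109 and 70 of 602. The 5 loops with the lowest ratios were not typical of the lowest class, since the weaker anchor lay at percentiles 97.7, 93.1, 91.4, 86.4 and 49.5. The scores come from wild-type cells. Mutant CTCF peaks were not analysed here.

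Nested loops lie inside one another. The nested loops were a majority of the strong shared loops only when weaker interactions were counted as outer loops. Inside another strong shared loop lay 171 of the 929, 18.4% (Wilson interval 16.0 to 21.03), and only 19 of these, 2.05% of all, had no anchor in common with the loop around them. Layers were few: 141 loops had 1 loop around them, 24 had 2, 4 had 3, and 1 each had 4 and 5. Counting every shared interaction as a possible outer loop, 62.6% (59.5 to 65.7) were nested. The same share was 48.9% (47.4 to 50.4) for the weaker shared interactions, a difference of 13.8 percentage points (10.3 to 17.1). The strong shared loops had the higher share in each span class. The difference was 6.57 points (-1.58 to 13.8) under 50 kb, where the interval reached 0, and 22.8 points (9.45 to 35.7) at 400 kb or more. Anchors of the strong shared loops also had more partners, with means of 2.62 (wild type) and 2.94 (mutant), against 1.70 and 1.89 over all anchors. The part of partner number in the nesting was not tested.

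Most pairs of loops that met did so at a common anchor. Of 246 pairs of strong shared loops that overlapped or touched, 94 had a common left anchor, 92 a common right anchor and 35 met end to end. A further 24 lay 1 inside the other with no common anchor. Only 1 pair crossed, on chromosome 11, named after its values were seen: chr11:32082237-32083140 with chr11:32136563-32139198 (17 wild-type and 19 mutant tags, 55.2 kb) and chr11:32116056-32117600 with chr11:32220772-32222194 (13 and 23 tags, 105 kb). Most loops, 600 or 64.6%, had no anchor in common with another strong shared loop. The largest group joined by common anchors held 7.

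The deepest nest was on chromosome 15. There a loop of 216 kb (chr15:102796411-102797964 with chr15:103011748-103015043) had 12 tags in each library and held 5 others. The second anchor from the left, chr15:102817481-102818601, was the left end of 4 of these. Its loops reached to 4 right anchors between 102995288 and 103015043, with 13, 13, 25 and 18 wild-type tags and 31, 14, 26 and 18 mutant tags from the nearest to the farthest. The nearest loop alone was raised past 2-fold (log2 1.11, 0.13 to 2.16). Innermost of all was a loop of 152 kb, from chr15:102843612-102844557 to chr15:102995288-102996574, with 12 and 23 tags and 5 loops around it. The 6 loops of this nest thus used 3 left anchors and 4 right anchors, and the right anchors all had CH12 peaks at percentile 94.0 or above. The third nest, on chromosome 11 (chr11:11361214-11362587 with chr11:11687660-11689386, 41 and 49 tags, 327 kb), held 3 loops with 19 to 27 wild-type and 26 to 40 mutant tags.

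Chains, in which the right anchor of 1 loop is the left anchor of the next, were short. They took in 59 loops, 6.35% (4.96 to 8.11): 29 first, 1 inner and 29 last. Of the 24 separate chains 1 had 3 loops in a row and none had more. Of 1665 anchors in use, 818 were left ends only, 822 right ends only and 25, or 1.50%, served on both sides. By construction a chain needs such a two-sided anchor. Nor did loops often follow at a short distance: of 825 right anchors with a left anchor farther along the chromosome, 30 had one within 10 kb without being the same anchor, and the median gap was 900 kb. When chains could run through any shared interaction, 242 strong shared loops, 26.0% (23.3 to 29.0), had a place in one, of them 113 first, 21 inner and 108 last. The weaker shared interactions had 18.7% (17.6 to 19.9), a difference of 7.31 points (4.35 to 10.4). The share was higher for strong shared loops in all 5 span classes, but the interval of the difference reached 0 under 50 kb (-1.09 to 14.8) and at 100 to 200 kb (-1.95 to 8.75).

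The longest chain, on chromosome 11, ran over 4 anchors from 3993682 to 4322773. Its middle loop was the third strongest of all, with 75 and 138 tags over 38.7 kb. The loop before it, of 125 kb, had 14 and 10 tags, and the loop after it, of 164 kb, 36 and 51. Their anchors lay at percentiles 98.8, 99.1, 99.7 and 36.4 of the CH12 list. Tags in this chain were therefore highest in the shortest of the 3 loops and lowest in the first. The other chains all had 2 loops, and ties among them went to more tags, so the next ones named were picked by their tags. The second, on chromosome 2, joined the loop of 103 and 108 tags to 1 of 30 and 21 tags (chr2:32342190-32344911 with chr2:32421835-32422878). The third, on chromosome 13, joined loops of 54 and 85 tags over 269 kb and of 13 and 21 tags over 62.5 kb at chr13:41666986-41668213. Another loop, from chr13:41378243-41379383, reached the same middle anchor over 289 kb with 55 tags in each list.

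At their anchors the strong shared loops were the leading interaction in most cases. A loop held a median of 46.9% of all listed wild-type tags of its anchors and 42.4% of the mutant tags. Among wild-type interactions 710 of the loops had the most tags at both of their anchors, and among mutant interactions 700. It was the only interaction of both anchors in 53 and 38 loops. Tags chose the loops, so this describes them and is not a test.

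Interactions that crossed a strong shared loop, with 1 anchor between its anchors and 1 outside, were fewer than at weaker interactions. In the wild-type list 298 of 1780 interactions with an anchor inside a strong shared loop crossed out of it, 16.7% (15.1 to 18.5), against 23.4% (22.5 to 24.2) for weaker shared interactions. In the mutant list it was 326 of 1614, 20.2% (18.3 to 22.2), against 29.4% (28.5 to 30.3). The differences were -6.61 points (-8.48 to -4.62) and -9.20 points (-11.3 to -6.98). The strong shared loops had the lower share in every span class of both lists, though at 400 kb or more the interval of the difference reached 0, with -2.21 points (-5.85 to 2.43) and -3.59 points (-7.93 to 1.88). Crossing interactions were weak: a mean of 4.40 wild-type and 4.71 mutant tags, against 8.34 and 10.0 for interactions that stayed inside. Weaker shared interactions showed the same order, with 5.18 and 5.39 tags for crossing and 7.79 and 8.94 for inside interactions. An interaction is counted once for each loop it lies in or crosses. No crossing was listed in either library for 620 loops, 66.7%. A crossing was listed in both libraries for 119 loops, in wild type alone for 90 and in the mutant alone for 100. These counts were not made for weaker shared interactions. By library, a crossing was listed for 22.5% (wild type) and 23.6% (mutant) of strong shared loops. For weaker shared interactions the shares were 30.5% and 34.3%. Crossing interactions had few tags, so a crossing can be missing from 1 list through counting error. Whether crossings differed between the genotypes was not tested.

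**Figure D3:**
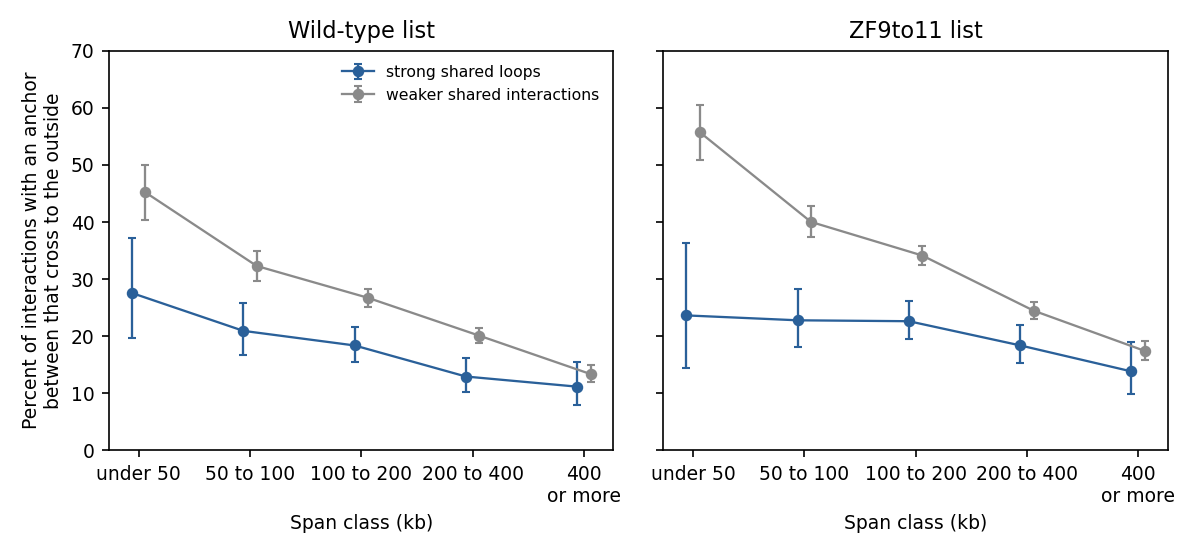
Percent of listed interactions with an anchor between the ends of a loop that cross to the outside (y axis), by span class of the loop (x axis, kb), for the wild-type list on the left and the ZF9to11 list on the right. Points are shares with Wilson 95% intervals for counting error; strong shared loops lie below weaker shared interactions in all 5 classes of both lists, by the most under 50 kb (27.6% against 45.2% in the wild-type list and 23.6% against 55.7% in the mutant list).

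CTCF peaks lay at nearly all anchors, as the way the lists were made nearly requires, since the authors tied interactions to CTCF peaks. CH12 peaks were at both anchors of 925 loops, 99.6% (98.9 to 99.8), and B cell peaks at both anchors of 927, 99.8% (99.2 to 99.9). The 4 anchors without a CH12 peak all had a B cell peak. They belonged to loops on chromosomes 1, 3, 18 and 19, named after their values were seen, with 10 to 26 wild-type and 11 to 17 mutant tags. The 2 loops without a B cell peak at an anchor, likewise named afterwards, lay on chromosomes 3 (13 and 11 tags) and 15 (13 in each list). The CH12 peaks at the anchors ranked higher in the strong shared loops. The weaker anchor of a strong shared loop had a median CH12 percentile of 78.8, against 68.9 for weaker shared interactions, and the stronger anchor 94.5 against 90.1. By B cell fold over background the medians were 59.5 against 61.1 and 81.7 against 83.1, so they were not higher for the strong shared loops. Across the loops, the weaker anchor's CH12 score had a Spearman rho of 0.18 with tags and -0.21 with span. Of the 3944 CH12 peaks in the top 10% by score, 17.4% lay at an anchor of a strong shared loop and 85.9% at an anchor of either list. Of all 39438 CH12 peaks, 1800 lay at an anchor of a strong shared loop. The share of all CH12 peaks at an anchor of either list is not given here.

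Between the anchors most loops passed over other CTCF peaks. The median was 3 CH12 peaks (2 to 3), with quartiles of 1 and 5 and at most 30. No CH12 peak lay between the anchors of 113 loops, 12.2% (10.2 to 14.4), against 11.4% of weaker shared interactions, and the difference of 0.76 points had an interval of -1.42 to 3.19. The B cell list gave a median of 4 peaks (4 to 5), at most 39, and 58 loops without one. Per 100 kb between anchors there were 2.34 CH12 and 3.78 B cell peaks in strong shared loops, and 2.19 and 3.503 in weaker ones. Of 2815 CH12 peaks between anchors, 87.0% overlapped a B cell peak. Of 4576 B cell peaks between anchors, 46.4% overlapped no CH12 peak, and these had a median fold of 4.43 against 7.18 for the others. Weaker shared interactions had nearly the same shares, 88.5% and 44.7%, with median folds of 4.53 and 7.44.

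Peaks within the loops were sparse and weak compared with peaks just outside. Each loop was divided into 10 equal parts and flanks of the same length were divided likewise. The parts inside had 2.06 to 2.94 CH12 peaks per 100 kb, and the flank parts next to the left and right anchors had 4.75 and 5.35. Within 10 kb of the anchors there were 3.59 peaks per 100 kb on the inner side and 6.26 on the outer side. The B cell list showed the same step, with 5.66 inside and 8.56 outside. The median percentile of CH12 peaks was 38.6 to 47.2 in the inner parts, and 66.0 and 63.1 in the flank parts next to the left and right anchors. Weaker shared interactions had a step as well, of 3.66 to 5.82 CH12 peaks per 100 kb within 10 kb. Nested loops cover the same peaks more than once in these counts, and outer flanks hold anchors of other loops.

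**Figure D4:**
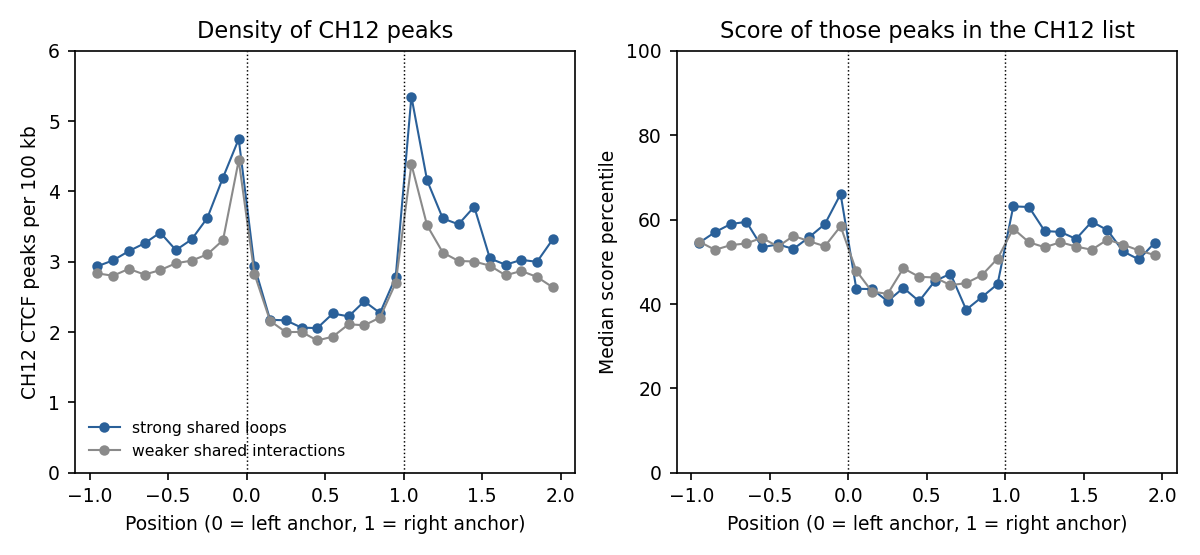
CH12 CTCF peaks per 100 kb (left) and their median score percentile in the CH12 list (right) along loops scaled to a common length, where 0 is the left and 1 the right anchor and the flanks are as long as the loop; each point is 1 of 10 equal parts. Anchors themselves are left out. For strong shared loops the density drops from 4.75 to 2.94 across the left anchor and the percentile from 66.0 to 43.6.

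Peaks between anchors outscored an anchor less often in strong shared loops than in weaker shared interactions. A CH12 peak with a higher score than the weaker anchor lay between the anchors of 363 of 925 loops, 39.2% (36.1 to 42.4), against 56.5% (55.1 to 58.0) of weaker shared interactions. The difference was -17.3 percentage points (-20.7 to -13.8). It had the same sign in every span class: 11.5% against 26.0% under 50 kb, 30.4% against 46.0% at 50 to 100 kb, 48.2% against 61.0% at 100 to 200 kb, 52.5% against 69.9% at 200 to 400 kb and 68.4% against 79.4% at 400 kb or more, where the interval of the difference reached 0 (-24.3 to 0.17 points). A peak above both anchors lay within 14.3% of strong shared loops and 26.5% of weaker ones. Both sides of this comparison differed: the anchors of strong shared loops ranked higher, as given above, and the peaks between them had a median percentile of 42.9, against 46.9 in weaker ones. By B cell fold the shares were 67.4% and 73.2%, a difference of -5.80 points (-9.14 to -2.57). Interactions with 10 or more tags unique to the wild-type list had nearly the same share by CH12 score over all spans, 39.4% (34.2 to 44.8). By span class they differed from the strong shared loops in both directions. Their share was higher under 50 kb (27.5%, 18.4 to 39.0) and at 50 to 100 kb (42.5%, 32.7 to 53.0). It was lower at 100 to 200 kb (40.2%), 200 to 400 kb (36.6%) and 400 kb or more (66.7%). Interactions with 10 or more tags unique to the mutant list had 62.2% (56.5 to 67.5) over all spans.

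**Figure D5:**
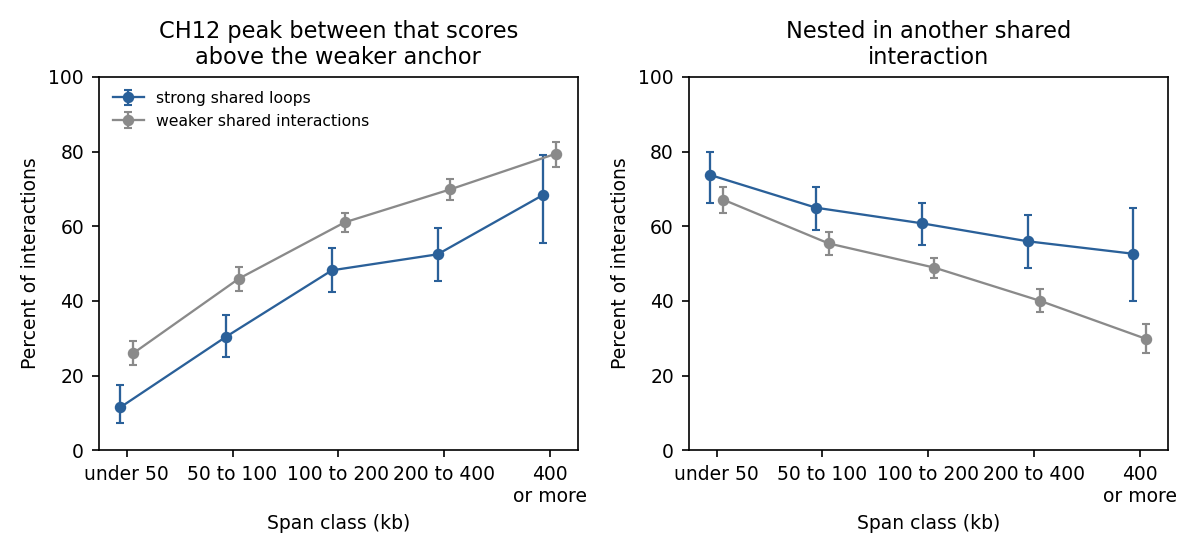
Left, percent of interactions with a CH12 peak between the anchors that scores above the weaker anchor; right, percent nested in another shared interaction; both by span class (x axis, kb), with Wilson 95% intervals for counting error. Strong shared loops lie below weaker shared interactions in all 5 classes on the left (39.2% against 56.5% over all spans) and above them on the right (62.6% against 48.9%).

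Many of the peaks passed over were anchors of other interactions. Of the 2815 CH12 peaks between anchors, 43.1% (41.3 to 45.0) overlapped an anchor of either list, and their median percentile was 66.1, against 27.9 for the rest. In weaker shared interactions the share was nearly the same, 44.3% (43.4 to 45.2), with percentiles of 70.6 and 30.6. The loop that passed over the most, on chromosome 15 (chr15:101157272-101158409 with chr15:101813442-101815812), had 30 CH12 and 26 B cell peaks between its anchors, over 657 kb, with 20 and 21 tags. In the wild-type list 15 interactions lay inside it and 1 crossed it, and in the mutant list 9 and 2. A loop to the same right anchor, from chr15:101169434-101170668, had 29 CH12 peaks and 13 and 24 tags. The third, on chromosome 14 (chr14:54847143-54848594 with chr14:55259869-55261349), had 29 CH12 and 39 B cell peaks and 12 tags in each list. In all 3 loops the strongest peak between the anchors was at percentile 99.2 to 99.4 of the CH12 list.

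At the other end, the longest loops with no CH12 peak between the anchors were the chromosome 13 loop of 306 kb described above, a chromosome 3 loop of 279 kb (chr3:57647444-57648426 with chr3:57926268-57927250, 20 tags in each list) and a chromosome 2 loop of 249 kb (chr2:74553471-74554698 with chr2:74802061-74803167, 34 and 26 tags). The B cell list had 3, 1 and 0 peaks there. The chromosome 3 loop was nearly the only listed interaction of its anchors, with 0 other wild-type and 5 other mutant tags. The chromosome 2 loop, in contrast, lay inside 7 other shared interactions. No listed interaction of either library lay inside or crossed any of these 3 loops. Interaction ends were matched to CTCF peaks, so choosing loops without a CH12 peak between the anchors nearly fixes this.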

How the data were processed

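The authors deposited 2 interaction lists with counts of supporting tags. Per the file headers, each end was matched to a CTCF peak call with a core motif, and interactions under 3 tags or over 2 Mb were dropped. The CH12 peaks have 1 deposited score each and MACS in their names. The B cell peaks have a deposited fold over background (a ratio) and −log10 p and q values, of which only the fold was used. The submitters' processing notes give mm9 as the build and name BWA, bedtools 2.25, SAMtools 1.2, Bowtie 1.1.1 and CASAVA 1.8.2 without roles. The sources used here do not give the interaction caller, the peak calls behind the anchors of each list, or any pooling before peaks were called. The other samples of the series were not analysed here.

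Loops were kept with 10 or more tags in each list. Tags were divided by the listed tags of their library, which leave out interactions under 3 tags and so are not its depth. A loop was nested when both its anchors lay within the outer edges of another, a common anchor allowed. Peaks at an anchor overlapped it by 1 bp or more, and peaks between lay wholly between the inner edges. Shares have Wilson intervals, differences of shares Newcombe intervals, medians order-statistic intervals, and tag ratios of single loops exact binomial intervals, all at 95%.

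The members, the rule for named loops and the alternatives were chosen with earlier results of these data known. The alternatives were other tag limits, scalings, and rules for nesting, chains and peaks. Named loops were the 5 with most tags, with the highest and with the lowest ratio, the 5 longest and shortest, and 3 each that held most others, formed the longest chains, passed over most CH12 peaks, or were longest without one. The intervals of differences and the classes by anchor score were added after the data were seen. Genes and motif sequences at anchors were not run, since no mm9 annotation or genome was used here. The scripts were tested on simulated data with known nesting, chains and peaks. Python 3.11.15 was used with numpy 2.4.6, scipy 1.17.1 and matplotlib 3.10.9.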

Additional observations from a re-analysis of the deposited data

How the results depend on the processing

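No paired analysis was possible because each genotype had a single ChIA-PET library. Of 39 alternatives, 17 gave a value within the interval of the reported one (for the number of loops, within 1.5 times) and 22 did not. With a limit of 8 tags there were 1402 loops, 13.7% past 2-fold and 23.2% nested. With a limit of 20 tags there were 226 loops, 5.75% past 2-fold, 9.73% nested, 3.54% in chains, 100% with CH12 peaks and 100% with B cell peaks at both anchors, and 32.3% with a stronger CH12 peak between. By construction, fewer loops leave fewer to be nested or chained. The median log2 tag ratio was -0.054 when scaled by the tags of shared interactions, of the opposite sign, and 0.15 with no scaling. Nested loops were 2.05% with no common anchor and 62.6% in any shared interaction. Loops in chains were 12.9% when joined within 10 kb and 26.0% among all shared interactions. Peaks at or above the median of their list were at both anchors of 87.2% (CH12) and 73.8% (B cell) of loops, and gave a median of 1 CH12 peak between, where B cell peaks gave 4. A stronger peak between was found in 14.3% when above both anchors and in 67.4% by B cell fold. Elsewhere the cause was not tested. Interactions under 3 tags are not listed, so a crossing or nested interaction that is not listed is not shown to be absent.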

Other observations

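The strong shared loops were spread unevenly over chromosomes. Chromosome 11 held 94 of them and chromosome 2 held 85. As a share of all shared interactions they were most frequent on chromosome 14, at 22.9% of 284, and least on chromosomes X (2.86% of 35), 17 (11.0% of 219) and 16 (11.1% of 135). The single loop on chromosome X (chrX:96330011-96330803 with chrX:96717976-96718832) spanned 388 kb and had 12 wild-type and 15 mutant tags. Chromosome 14 had 65 such loops beside 1735 CH12 peaks, and chromosome 16 had 15 beside 1200. These shares were not tested.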
